A study of Mus musculus with 9 samples.

Results

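The open chromatin around 10 genes of melanin synthesis and the melanosome was described: Tyr, Tyrp1, Dct, Pmel, Mlana, Slc45a2, Slc24a5, Oca2, Gpr143 and Trpm1. Every peak of the 9 lists that overlapped one of these genes or lay within 50 kb of it, by the RefSeq positions of GRCm38, was taken. Peaks merged over the libraries gave 58 regions near the 10 genes, of 32649 regions in all. The nearest of them to the limit lay 49011 bp from Mlana, with a peak in all 9 libraries. The nearest region outside it lay 51812 bp from Trpm1 and had a peak in 3 B16_untreated, 1 B16_IFNy and 1 Res499 libraries.

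Accessible DNA was mapped by ATAC-seq, which uses a transposase to insert adaptors into open chromatin. The cells were of the mouse melanoma line B16 or its derivative 499, were injected into mice, and were sorted from the tumours on day 15. B16_untreated is B16 without treatment. B16_IFNy is B16 kept in interferon gamma (IFNy) before injection, for 2 weeks in replicates 1 and 2 and for 3 weeks in replicate 3. Res499 is the resistant line 499 without treatment, known as a B16 line that resists checkpoint blockade. Each group had 3 libraries, and resistance is represented by this single line. The labels give neither the sort gate nor the strain or age of the mice. They also do not tie a replicate to a mouse, so the tests below reflect the scatter of 3 libraries per group, which may be technical.

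Melanin is made in the melanosome, a lysosome-related organelle of pigment cells. Tyrosinase (Tyr) oxidises tyrosine in the first and limiting step, and Dct and Tyrp1 act on later intermediates. Pmel forms the fibrils on which melanin is laid down, and ion transporters set the milieu in which tyrosinase works. The factor MITF drives most of these genes in melanocytes through E-box sequences of the M-box type, and several of their proteins are antigens that T cells see on melanoma cells.

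The DNA at the start sites of these genes was searched for a set of motifs. As the M-box is known from genes that MITF drives in melanocytes, a match to it is not independent of the choice of members. RefSeq start windows, 250 bases before to 50 after a start, were held in the table for 6 of the 10 genes, with 7 start sites in all (Trpm1 has 2). All 7 held CATGTG or its reverse complement CACATG, the core of the M-box, against 14.2% of the 32851 start windows of the table. CACGTG, the other E-box that MITF binds, was in 1 of the 7 (7.15% of all windows). Of the other motifs searched on both strands, ACAAAG (SOX) matched in 3 windows (18.7% of all) and TGANTCA (AP-1) in 1 (7.81%), where it overlaps the M-box core. TTCNNNGAA (GAS, 8.30% of all) and the ISRE motif (3.44%) had no match in these 7 windows. The 5 windows below are those on which a called region lay. They are from RefSeq, GRCm38.p6, written 5′ to 3′ along the gene, with the matches to the M-box core on either strand and to the other E-box in capitals. A match is a description of the letters and not a binding site.
Tyr start (chr7:87493463-87493762, minus strand): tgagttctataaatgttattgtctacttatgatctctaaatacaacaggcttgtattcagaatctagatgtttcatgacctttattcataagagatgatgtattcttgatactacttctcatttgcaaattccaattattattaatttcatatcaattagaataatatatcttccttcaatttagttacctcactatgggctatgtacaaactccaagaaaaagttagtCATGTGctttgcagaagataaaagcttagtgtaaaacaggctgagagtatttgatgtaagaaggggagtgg
Tyrp1 start (chr4:80833963-80834262, plus strand): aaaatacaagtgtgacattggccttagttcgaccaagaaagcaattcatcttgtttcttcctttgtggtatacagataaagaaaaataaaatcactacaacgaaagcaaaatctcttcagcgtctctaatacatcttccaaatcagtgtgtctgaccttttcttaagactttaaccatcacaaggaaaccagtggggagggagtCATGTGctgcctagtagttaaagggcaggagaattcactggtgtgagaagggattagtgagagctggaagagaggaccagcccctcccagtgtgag
Dct start (chr14:118052197-118052496, minus strand): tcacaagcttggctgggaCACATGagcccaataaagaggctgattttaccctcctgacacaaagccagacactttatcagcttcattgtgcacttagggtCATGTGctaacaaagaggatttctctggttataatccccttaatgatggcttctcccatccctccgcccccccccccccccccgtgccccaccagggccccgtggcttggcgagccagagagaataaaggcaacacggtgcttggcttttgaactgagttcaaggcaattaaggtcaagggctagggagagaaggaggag
Slc24a5 start (chr2:125067877-125068176, plus strand): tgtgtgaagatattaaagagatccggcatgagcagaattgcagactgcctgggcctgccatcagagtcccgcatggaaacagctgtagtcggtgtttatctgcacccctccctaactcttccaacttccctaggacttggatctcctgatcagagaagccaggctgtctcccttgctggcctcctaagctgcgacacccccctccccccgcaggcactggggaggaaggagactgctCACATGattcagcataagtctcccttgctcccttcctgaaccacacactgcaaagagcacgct
Trpm1 inner start (chr7:64185209-64185508, plus strand): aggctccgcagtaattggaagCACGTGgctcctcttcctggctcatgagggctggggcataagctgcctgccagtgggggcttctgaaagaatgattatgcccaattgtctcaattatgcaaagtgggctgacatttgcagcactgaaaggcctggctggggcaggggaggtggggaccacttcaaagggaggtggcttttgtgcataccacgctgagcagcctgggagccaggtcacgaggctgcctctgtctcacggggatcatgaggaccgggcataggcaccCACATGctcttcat
Counted from the start site as 0 and along the gene, the first base of the core lies at -21 in Tyr, -46 in Tyrp1 and -13 in Slc24a5. In Dct there are 2, at -232 and -150. The inner Trpm1 window has CACGTG at -229 and CACATG at 36. The windows of Oca2 and of the outer Trpm1 start also hold the core, and no library had a peak on them.

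The lists differed in length, which sets how many weak peaks each can hold. B16_untreated had 15042 to 25362 peaks, B16_IFNy 11181 to 16231 and Res499 9214 to 15385, and the shortest list was Res499 replicate 2. Relative depth was estimated as the lowest background of a list divided by the length of its shortest peak. This takes the shortest peak as the fragment length, which was not tested. In fragments per kb it was 8.14 to 10.8, 7.59 to 9.17 and 8.68 to 11.1. The shallowest called peak of a library had 6 to 10 fragments at its summit, so a missing peak means fewer fragments than the caller asks for, not closed DNA. B16_untreated replicates 1 and 3, B16_IFNy replicate 3 and Res499 replicate 3 had no peak shorter than 150 bp, while the other 5 each had peaks shorter than that. These are called the long and short classes below. The median summit held 18 to 25 fragments in libraries of the long class and 12 to 16 in those of the short class. Summit fragments are thus not comparable between classes, and 2 of the 3 untreated libraries were long. No label names such classes, and what sets the shortest peak was not tested. The ends of Mitf and Pax3, regulators of the melanocyte lineage, had a peak in all 9 libraries, and those of Ednrb and Tfap2a in none. Kit had one in 1 B16_untreated, 0 B16_IFNy and 3 Res499 libraries, and Sox10 in 1 library. None of 8 leukocyte, 4 endothelial and 4 keratinocyte marker genes had a peak at an end in any library. Of 4 fibroblast markers Col1a1 alone had one, in 3 B16_untreated, 3 B16_IFNy and 1 Res499 libraries, and the part of Kit and Col1a1 in the results was not tested. A weaker peak from fewer cells with open DNA and one from less opening in each cell cannot be told apart in these bulk libraries.

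Over the full lists, the number of pigment-gene regions with a peak was highest in 2 of the untreated libraries. B16_untreated replicates 1, 2 and 3 had 21, 42 and 42 regions, B16_IFNy had 21, 14 and 20, and Res499 had 24, 8 and 19. The groups overlapped, since B16_untreated replicate 1 equalled B16_IFNy replicate 1 and was below Res499 replicate 1. The mean was 35 ± 12.1 in B16_untreated, 18.3 ± 3.79 in B16_IFNy and 17 ± 8.19 in Res499 (SD, n = 3 each). As a share of all regions called in a library this was 0.175 ± 0.0344%, 0.144 ± 0.0351% and 0.141 ± 0.0434%, and the ranges of the groups overlapped. In lists cut to the 9214 most significant peaks, the counts were 9, 9 and 13 in B16_untreated, 7, 7 and 14 in B16_IFNy and 7, 8 and 12 in Res499, and they overlapped as well.

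**Figure D1:**
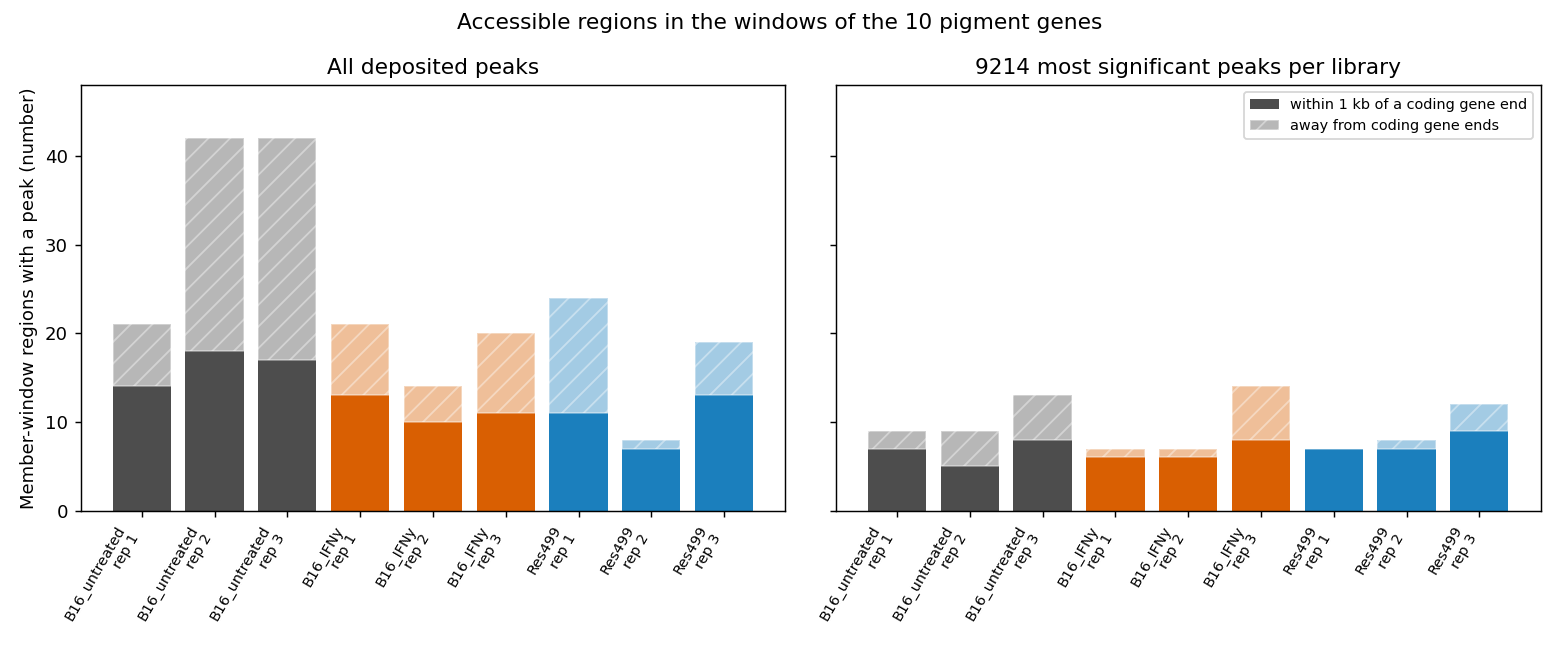
Number of the 58 pigment-gene regions with a peak in each library (vertical axis), split into those within 1 kb of any coding gene end (solid) and the others (hatched), for all deposited peaks (left) and for the 9214 most significant peaks of each library (right). Untreated replicates 2 and 3 reach 42 regions on the left, and on the right the 9 libraries lie between 7 and 14.

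Of the 58 regions, 9 lay within 1 kb of an annotated end of a member, 1 at the inner start of Trpm1, 11 at the end of another coding gene in the window, 19 inside gene bodies and 18 outside the genes (distal). All 5 regions with a peak in every library were at gene ends, 2 of them at a member (Dct and Pmel). They made up 25% of the 20 regions at coding gene ends, beside 45.7% of such regions in the whole series, and 8.62% of the 58, beside 18.9% of all regions. Inside the gene bodies, 14 of the 19 had a peak only in B16_untreated libraries and 10 had one in a single library. Of the regions inside any coding gene, 52.2% had a peak in a single library, beside 47.4% in the whole series. Counting by any coding gene, 60.9% of the 23 regions inside coding genes were called only in untreated cells, beside 42.6% of such regions in the whole series. For regions at coding gene ends the shares were 5% of 20 and 10.1%, and outside coding genes 33.3% of 15 and 40.9%.

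**Figure D2:**
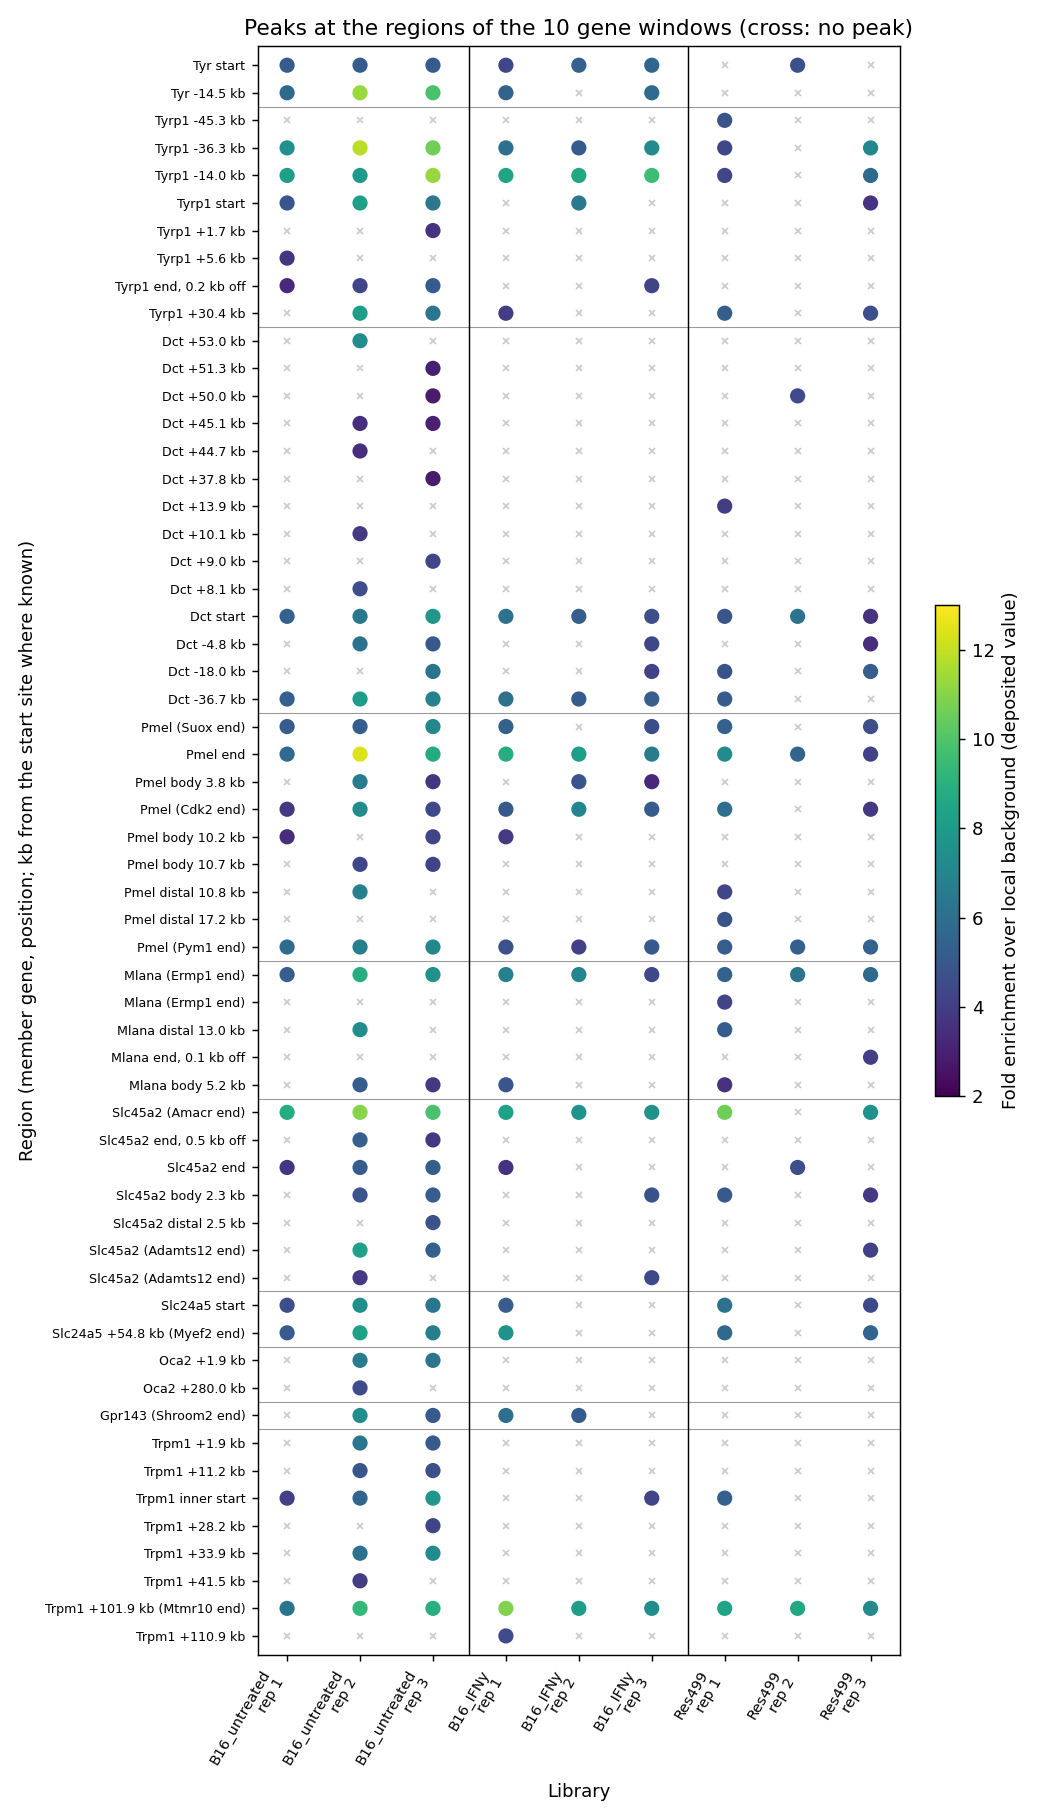
Each row is one of the 58 regions, ordered by gene and position, and each column a library, with a dot for a peak, coloured by its deposited fold enrichment, and a grey cross for no peak. The rows of the Dct start and the Pmel end are filled across, while most rows inside Dct, Oca2 and Trpm1 have dots only in untreated replicates 2 and 3.

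The comparison of Res499 with B16_untreated asks what sets the resistant line apart. Of the 58 regions, 2 had a peak in all untreated libraries and in no Res499 library, the upstream site of Tyr and the downstream end of Tyrp1, and none had the opposite pattern. Over all regions with a peak in at least 3 of the 6 libraries, 8.06% were called this way and 0.0533% the opposite way. Among regions away from coding gene ends the share was 15.3% and among those at ends 2.7%, and the 2 pigment-gene regions were 1 of each kind. Of the 58, 25 had peaks in at least 3 of these libraries. With 1 library left out, the background was taken over regions with a peak in at least 2 of the remaining 5. The count was then 11 of 37 pigment-gene regions without untreated replicate 1 (19.7% of the regions tested), 4 of 36 without Res499 replicate 1 (12%) and 4 of 37 without Res499 replicate 2 (7.07%), the shortest list. It was 3 of 27 without untreated replicate 2 (10%), 3 of 38 without Res499 replicate 3 (9.81%) and 2 of 27 without untreated replicate 3 (10%). By rank within the 9214 most significant peaks, 9 regions could be tested and 1 was lower in every Res499 library than in every untreated one (the start of Tyrp1) and 1 was higher (the end of Mtmr10, a neighbour of Trpm1). The background was 7.22% lower and 6.11% higher. The lower count was 3 of 13 without untreated replicate 1 (15.8% of all regions tested), 2 of 13 without untreated replicate 2 (11.3%) and 2 of 11 without Res499 replicate 3 (11.4%). The higher count was 3 of 11 without Res499 replicate 1 (10.8%) and 5 of 13 without Res499 replicate 2 (11.7%). With the rank as a percent of each library's own list, an alternative added after seeing the data, 6 were lower and 1 was higher. The share over all regions is not given on this scale. The same rank is a smaller percent of a longer list, and the untreated lists were mostly longer. These counts can therefore not be read as a trait of the pigment genes. An exact permutation test of 3 against 3 libraries cannot go below p = 0.1, and the lowest adjusted p over 9364 regions was 0.750.

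B16_IFNy against B16_untreated asks what long exposure to interferon gamma leaves behind. In the full lists no pigment-gene region was called throughout one group and nowhere in the other (background 4.9% lower and 0.0318% higher in B16_IFNy). Without untreated replicate 1, 8 of 36 pigment-gene regions were lower (14.2% of all regions tested). Without B16_IFNy replicates 1, 2 and 3 there were 3 of 36, 1 of 36 and 2 of 34 (8.65%, 5.1% and 5.75%). By rank none of 10 tested was lower in B16_IFNy and 1, again the end of Mtmr10, was higher, against 5.21% and 5.11% of all regions. The lower count was 2 of 12 without untreated replicate 1 (12.7% of all regions tested) and 2 of 13 without replicate 2 (9.33%). It was 1 of 12 without B16_IFNy replicate 2 (8.25%) and 1 of 10 without replicate 3 (10.2%). The higher count was 2 of 13 without B16_IFNy replicate 1 (9.5%). With ranks as a percent of each list, 6 were lower and 0 higher, again without a share over all regions and with longer lists in most untreated libraries. The lowest adjusted p over 9493 regions was 0.969 (exact permutation test, where 0.1 is the smallest raw p). Between Res499 and B16_IFNy no region was called throughout one group and nowhere in the other (1.15% lower and 0.277% higher over all regions). Leaving out 1 library other than Res499 replicate 3 made 1 of 21 to 24 regions lower, a different one each time. The background was 1.24% to 3.87% of all regions tested. Without B16_IFNy replicates 1, 2 and 3 these were within the spans of Pmel and Cdk2, upstream of Tyr and at the end of Shroom2. Without Res499 replicates 1 and 2 they were 36689 bp upstream of Dct and at the start of Tyr. By rank, 1 region was lower in Res499, the site 14015 bp upstream of Tyrp1, and none was higher (5.55% and 4.99% of all regions). The lower count was 2 of 11 without Res499 replicate 1 (8.81% of all regions tested). The higher count was 1 of 12 without B16_IFNy replicate 1 (7.77%), 1 of 11 without Res499 replicate 1 (9.77%) and 2 of 11 without Res499 replicate 2 (10.2%). It was 1 with ranks as a percent of each list, where no share over all regions is given.

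With B16_IFNy and Res499 together against B16_untreated, no region of the full lists was called in all libraries on one side only (2.44% lower and 0.00593% higher over all regions). Without untreated replicate 1, 7 of 39 pigment-gene regions were lower (9.18% of all regions tested), and without B16_IFNy replicate 3 1 of 28 was (3.19%). By rank none of 13 tested was lower and 1 was higher (1.59% and 0.945% of all regions). The lower count was 2 of 15 without untreated replicate 1 (5.77% of all regions tested) and 1 of 13 without B16_IFNy replicate 2 (2.2%). The region at the end of Mtmr10 ranked 4286, 6376 and 4545 in B16_untreated, 1003, 3271 and 2514 in B16_IFNy and 1767, 866 and 1702 in Res499. All 6 treated or resistant libraries thus had better ranks than all 3 untreated ones, with an exact permutation p of 0.0119, the smallest that 84 arrangements can give. Adjusted over 10687 regions it was 0.757, and 508 of those regions had an unadjusted p under 0.05. The fold enrichments of this region overlapped, at 6.19, 9.31 and 8.92 in B16_untreated, 10.9, 8.07 and 7.40 in B16_IFNy and 8.44, 8.53 and 7.21 in Res499. Its summits held 36, 27 and 32 fragments in B16_untreated, 29, 16 and 22 in B16_IFNy and 25, 20 and 28 in Res499. Its −log10 p was 19.5 to 23.8 in B16_untreated, and of the other 6 libraries only B16_IFNy replicate 1, at 25.9, was not below these values. The better ranks thus came mostly without more significant peaks. Its rank as a percent of the library's own list was 28.5, 25.1 and 22.6 in B16_untreated, 6.18, 24.9 and 22.5 in B16_IFNy and 11.5, 9.4 and 14.5 in Res499. On that scale B16_IFNy overlapped B16_untreated, and the pooled separation and that of B16_IFNy were lost, while Res499 stayed apart from B16_untreated. The comparisons with B16_untreated share its libraries and are not independent. Mtmr10 is no pigment gene and lies in the window of Trpm1 by position alone.

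Tyr, on chromosome 7 (87424771 to 87493512), had only 2 regions. The first covered its start (87492925 to 87493718). Its fold enrichment over the local background, a deposited value, was 5.12, 5.15 and 5.17 in B16_untreated replicates 1, 2 and 3, and 4.32, 5.36 and 5.62 in B16_IFNy. In Res499 only replicate 2 had a peak, at 4.70. The start was therefore called in 7 of 9 libraries at similar fold, and the 2 missing libraries were both Res499. The summits held 10 to 25 fragments in untreated, 9 to 15 in B16_IFNy and 10 in Res499 libraries, beside 6 to 10 for the shallowest peaks called. In the long class they held 25 and 16 in untreated and 15 in B16_IFNy. In the short class they held 10 in untreated, 9 and 9 in B16_IFNy and 10 in Res499. Ranks were 8673 of 15042, 20100 of 25362 and 14726 of 20136 in B16_untreated. They were 14864 of 16231, 9778 of 13163 and 6776 of 11181 in B16_IFNy, and 8043 of 9214 in Res499 replicate 2. At equal list length each group had the start in 1 library, and without Res499 replicate 2 the start would be called in all untreated and in no Res499 libraries of the full lists.

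The second Tyr region lay 14542 bp upstream of the start (chromosome 7, 87508054 to 87508892), away from any coding gene end. A distal upstream enhancer of Tyr is known, and whether this region is that element was not examined. Fold enrichment was 5.66, 11.3 and 9.85 in B16_untreated replicates 1, 2 and 3, and 5.45 and 5.81 in B16_IFNy replicates 1 and 3. B16_IFNy replicate 2 and all 3 Res499 libraries had no peak. Untreated replicates 2 and 3 stood above every other library, while replicate 1 was level with the 2 B16_IFNy values. The summits held 16, 21 and 25 fragments in B16_untreated and 10 and 13 in B16_IFNy. By rank the untreated libraries stood at 10675 of 15042, 6323 of 25362 and 5423 of 20136. The B16_IFNy libraries stood at 12120 of 16231 and 7171 of 11181. Within the long class the site was called in 2 of 2 untreated, 1 of 1 B16_IFNy and 0 of 1 Res499 libraries. In the short class the numbers were 1 of 1, 1 of 2 and 0 of 2. At equal list length it was called in 2, 1 and 0 libraries, and the ranks overlapped. With only 2 libraries within that depth, Res499 against B16_untreated was not among the regions tested.

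**Figure D3:**
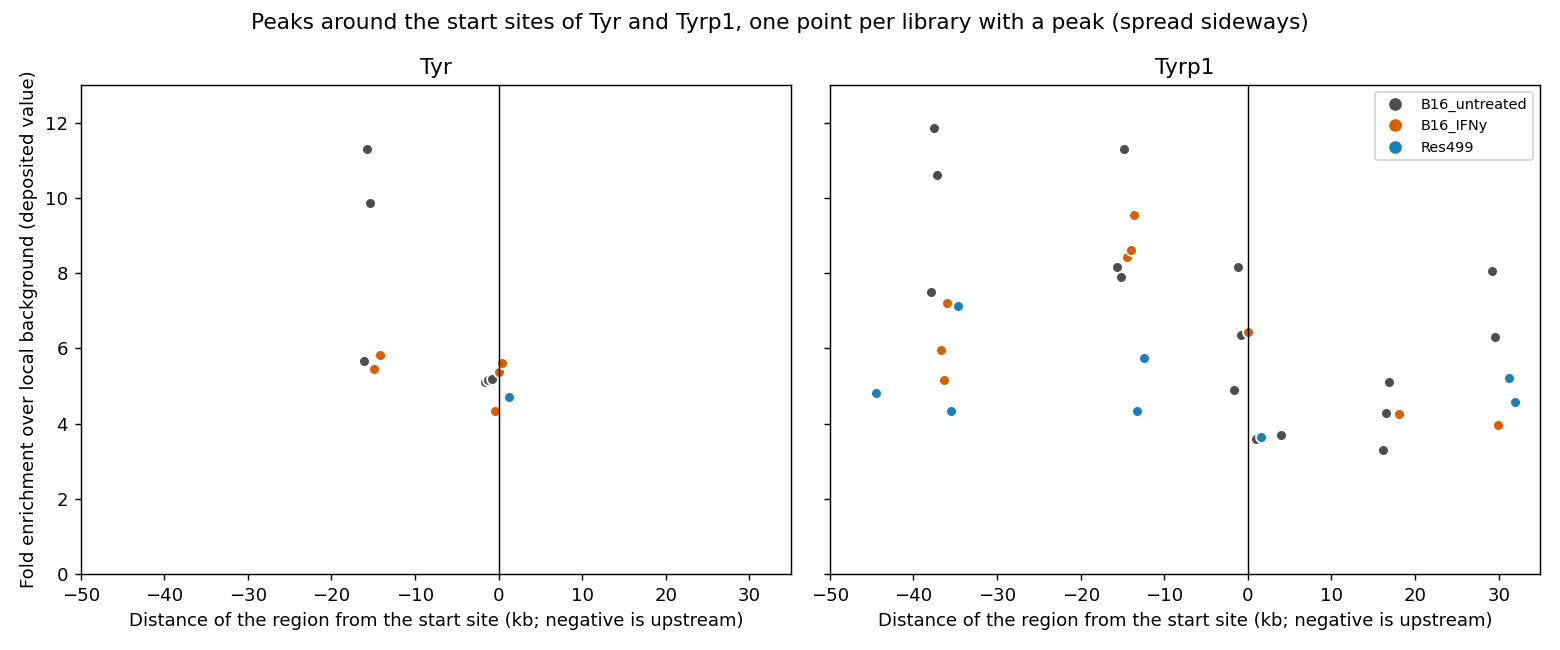
Fold enrichment over local background (vertical axis, deposited values) against the distance of the region from the gene's start site in kb (horizontal axis, upstream negative), one point per library with a peak, coloured by group and spread sideways. At the Tyr site 14542 bp upstream there are 3 untreated and 2 B16_IFNy points and no Res499 point, and Res499 has 2 points at each of the Tyrp1 sites 36335 and 14015 bp upstream and 1 point at 45315 bp.

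Tyrp1, which stabilises tyrosinase and acts late in eumelanin synthesis, lies on chromosome 4 (80834123 to 80851736) and had 8 regions. Its start region (80834091 to 80834718) had fold enrichments of 4.90, 8.18 and 6.35 in B16_untreated replicates 1, 2 and 3. B16_IFNy replicate 2 had 6.43 and Res499 replicate 3 had 3.63, and the other 4 libraries had no peak. The untreated ranks were 8790, 9033 and 8273 of the lists' 15042, 25362 and 20136 peaks, all just inside the 9214 used at equal length. Res499 replicate 3 stood at 9948, just outside it, and the list of Res499 replicate 2 ends at 9214. Within that depth, the separation of Res499 from B16_untreated at this region (exact permutation p = 0.1, adjusted 0.750) thus rested on ranks near the limit. It was lost with lists of 4607 peaks, with a −log10 q of at least 5, with ranking by fold, and when peaks had to cover 50% of the region. It held with full lists, with ranks as a percent of each list, and with each library left out in turn. In full lists the absent peaks of Res499 replicates 1 and 2 count as deepest, which depends on list length.

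The strongest sites of Tyrp1 were upstream of the gene. The site 14015 bp upstream (80819472 to 80820198) had fold enrichments of 8.17, 7.89 and 11.3 in B16_untreated, 8.43, 8.60 and 9.55 in B16_IFNy, and 4.33 and 5.74 in Res499 replicates 1 and 3. Res499 replicate 2 had no peak there. The 2 Res499 values were below all 6 others, and the summits of those 2 peaks held 8 and 17 fragments, against 13 to 34 in the other libraries. By rank, B16_IFNy stood at 5033, 3217 and 1311 and Res499 at 14352, no peak and 6356, so the groups did not overlap within the first 9214 (exact permutation p = 0.1, adjusted 0.949). They did overlap with lists of 4607 peaks and when peaks had to cover 50% of the region. B16_untreated stood at 2677, 12153 and 3681 and overlapped both. In the long class the fold was 8.17 and 11.3 in untreated, 9.55 in B16_IFNy and 5.74 in Res499. In the short class it was 7.89 in untreated, 8.43 and 8.60 in B16_IFNy and 4.33 in the 1 Res499 library with a peak.

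The next site, 36335 bp upstream (80797316 to 80797878), had 7.49, 11.9 and 10.6 in B16_untreated. The values were 5.95, 5.16 and 7.22 in B16_IFNy, and 4.33 and 7.13 in Res499 replicates 1 and 3. All untreated values were above all others, though 7.49 in untreated replicate 1 was close to 7.22 in B16_IFNy replicate 3. The share of all regions whose fold separates like this is not given, and Res499 replicate 2 had no peak. The ranks did overlap, at 5866, 5489 and 4253 in B16_untreated against 3660 in B16_IFNy replicate 3 and 3276 in Res499 replicate 3. Another distal site, 30372 bp downstream of the start (80864585 to 80864926), was called in 2 untreated, 1 B16_IFNy and 2 Res499 libraries, with folds of 3.97 to 8.06.

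The downstream end of Tyrp1 (80851942 to 80853288, 206 bp past the gene) was called in all B16_untreated libraries, in B16_IFNy replicate 3 and in no Res499 library. Fold enrichments were 3.31, 4.29 and 5.12 in B16_untreated and 4.26 in B16_IFNy. These were weak peaks, at ranks 14904, 20900 and 9099 in untreated and 7933 in B16_IFNy, and at equal list length 1 untreated and 1 B16_IFNy library had them. The remaining 3 regions, 2 in the gene body and 1 located 45315 bp upstream, had a peak in 1 library each.

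Dct, dopachrome tautomerase, had the most regions, 14 (chromosome 14, 118012790 to 118052246). Its start (118052000 to 118052915) was called in all 9 libraries. Fold enrichments there were 5.39, 6.39 and 7.83 in B16_untreated, 6.04, 5.24 and 4.64 in B16_IFNy and 4.84, 6.19 and 3.59 in Res499. The 3 groups overlapped, and so did the ranks, from 2526 to 9699 in untreated, 6596 to 9419 in B16_IFNy and 3399 to 9826 in Res499. Summits held 26 to 51 fragments in untreated, 11 to 21 in B16_IFNy and 16 to 21 in Res499. Split by class, the long libraries had 43 and 51 (untreated), 21 (B16_IFNy) and 21 (Res499). Short ones had 26 (untreated), 17 and 11 (B16_IFNy) and 16 and 16 (Res499). How many other regions have summits that separate this way is not given, so the gap cannot be called particular to Dct.

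The local background under the Dct start, the fragments expected at the summit relative to the lowest value in the library, was described after its values had been seen. It was 3.58, 4.17 and 3.56 in B16_untreated, 1.95, 1.74 and 2.65 in B16_IFNy and 2.32, 1.61 and 2.71 in Res499, so all 6 libraries of the other groups lay below all 3 untreated ones. The same held for 51% of the 6151 regions with a peak in all 9 libraries. Divided by the median of each library over those regions, the values were 1.65, 1.56 and 1.59 in B16_untreated, 1.11, 1.06 and 1.53 in B16_IFNy and 1.31, 1.05 and 1.39 in Res499. The groups still did not overlap, as at 4.03% of those regions, and of the 5 pigment-gene regions measured this was 1, with overlap at the other 4. The part of long or short class, list length and depth in this difference was not tested.

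Sites upstream of Dct were shared between groups. The one 36689 bp upstream (118088935 to 118089928) had folds of 5.33, 8.08 and 6.91 in B16_untreated, 6.04, 5.16 and 5.24 in B16_IFNy and 5.14 in Res499 replicate 1. Res499 replicates 2 and 3 had no peak. The site 4815 bp upstream was called in 2, 1 and 1 libraries and that 17958 bp upstream in 1, 1 and 2. Inside the gene 5 regions were called in 1 library each, 4 of them untreated. Past its lower end 5 further regions had folds of 2.81 to 7.38, with 3 called in 1 untreated library each, 1 called in untreated replicates 2 and 3, and 1 shared with Res499 replicate 2.

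Of the structural proteins, Pmel (chromosome 10, 128695888 to 128720238) had the region of the 58 with the best mean rank. It covered the lower end of Pmel (128695804 to 128696975), where the ends of Rab5b and Cdk2 lie within 1 kb as well, so it cannot be given to 1 gene. Fold enrichments were 5.65, 12.4 and 8.73 in B16_untreated, 8.81, 8.06 and 6.54 in B16_IFNy and 7.33, 5.56 and 4.18 in Res499. The lowest 2 were Res499 libraries, but untreated replicate 1 lay among the Res499 values and the groups overlapped. Ranks were 3199, 939 and 772, then 1791, 2153 and 1448, then 1672, 3156 and 5098, also with overlap. The annotated span of Pmel held 3 regions away from gene ends. They were called in 2, 2 and 2 untreated, 2, 1 and 0 B16_IFNy and no Res499 libraries. They lay 3808, 10222 and 10671 bp from the nearest end of Pmel and had folds of 3.25 to 6.52. Cdk2 lies within this span, and the first region lies between its ends, so it cannot be given to 1 gene. That region had 34 fragments and rank 7505 in untreated replicate 2. The ends of Suox and Pym1 and the other end of Cdk2 were called in 7, 9 and 8 libraries.

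Mlana, an antigen of melanoma that takes part in melanosome maturation, was nearly bare (chromosome 19, 29697541 to 29708447). Its own end had a peak in 1 library, Res499 replicate 3 (29697639 to 29697911, fold 4.02, 14 fragments, rank 10675 of 11765). A body region (29702807 to 29703262) was called in untreated replicates 2 and 3, B16_IFNy replicate 1 and Res499 replicate 1, with folds of 5.23, 3.89, 4.90 and 3.59. A distal site 13035 bp from the gene was called in untreated replicate 2 and Res499 replicate 1. The end of the neighbour Ermp1 was open in all 9 libraries, with folds of 4.39 to 8.82.

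Of the transporters, Slc45a2 and Slc24a5 had regions at their ends and Oca2 had none. Slc45a2, which affects melanosome pH, lies on chromosome 15 (11000721 to 11029233). Its lower end (11000557 to 11001064) had folds of 3.72, 5.21 and 5.25 in B16_untreated, 3.62 in B16_IFNy replicate 1 and 4.61 in Res499 replicate 2. Ranks were 13165, 16896 and 12217 in untreated, so at equal list length only the Res499 library, at 7937, had this peak. Just outside this end (10999977 to 11000267) a second region was called in untreated replicates 2 and 3, with folds of 5.28 and 3.74. A body region 2264 bp in was called in 2 untreated, 1 B16_IFNy and 2 Res499 libraries. The end of the neighbour Amacr was the strong site of this window, called in 8 of 9 libraries with folds of 7.50 to 11.0.

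Slc24a5, a cation exchanger of the melanosome, had a region over its start (chromosome 2, 125067851 to 125068579). Fold enrichments were 4.60, 7.47 and 6.31 in B16_untreated, 5.19 in B16_IFNy replicate 1 and 6.08 and 4.41 in Res499 replicates 1 and 3. The ranks were 10987, 10867 and 9918 in untreated, 12370 in B16_IFNy, and 6793 and 7984 in Res499. At equal list length only 2 Res499 libraries held it, while in the full lists all untreated libraries did. The end of the neighbour Myef2 had a peak in the same 6 libraries.

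Oca2, a melanosomal anion transport protein, is the longest of the genes (chromosome 7, 56239593 to 56536518, 297 kb). A region 1875 bp inside the start (56241634 to 56242304) was called in untreated replicates 2 and 3 with folds of 6.56 and 6.25, at ranks 13119 and 9989. The other Oca2 region was called in untreated replicate 2 alone (fold 4.51, 7 fragments). Neither B16_IFNy nor Res499 had a peak in this window, but untreated replicate 1 had none either.

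Gpr143, a receptor that controls melanosome size (chromosome X, 152781921 to 152808651), had no region of its own. The single region of its window was at the end of Shroom2, called in untreated replicates 2 and 3 and B16_IFNy replicates 1 and 2, with folds of 5.03 to 7.33. No Res499 library had it.

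Trpm1, a cation channel gene whose intron hosts the microRNA gene Mir211, lies on chromosome 7 (64153835 to 64269772). Its outer start had no peak. The inner start (64185175 to 64186066, 31340 bp inside the gene) had folds of 4.0, 5.54 and 7.74 in B16_untreated, 4.22 in B16_IFNy replicate 3 and 5.28 in Res499 replicate 1. The ranks were 13417, 17108 and 6290 in untreated, 10495 in B16_IFNy and 10415 in Res499. At equal list length untreated replicate 3 alone had this start. The Mir211 hairpin (64205806 to 64205911) carried no peak, and the nearest region was 7782 bp away. Of the other 5 body regions, 3 were called in untreated replicates 2 and 3 and 2 in 1 untreated library.

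**Figure D4:**
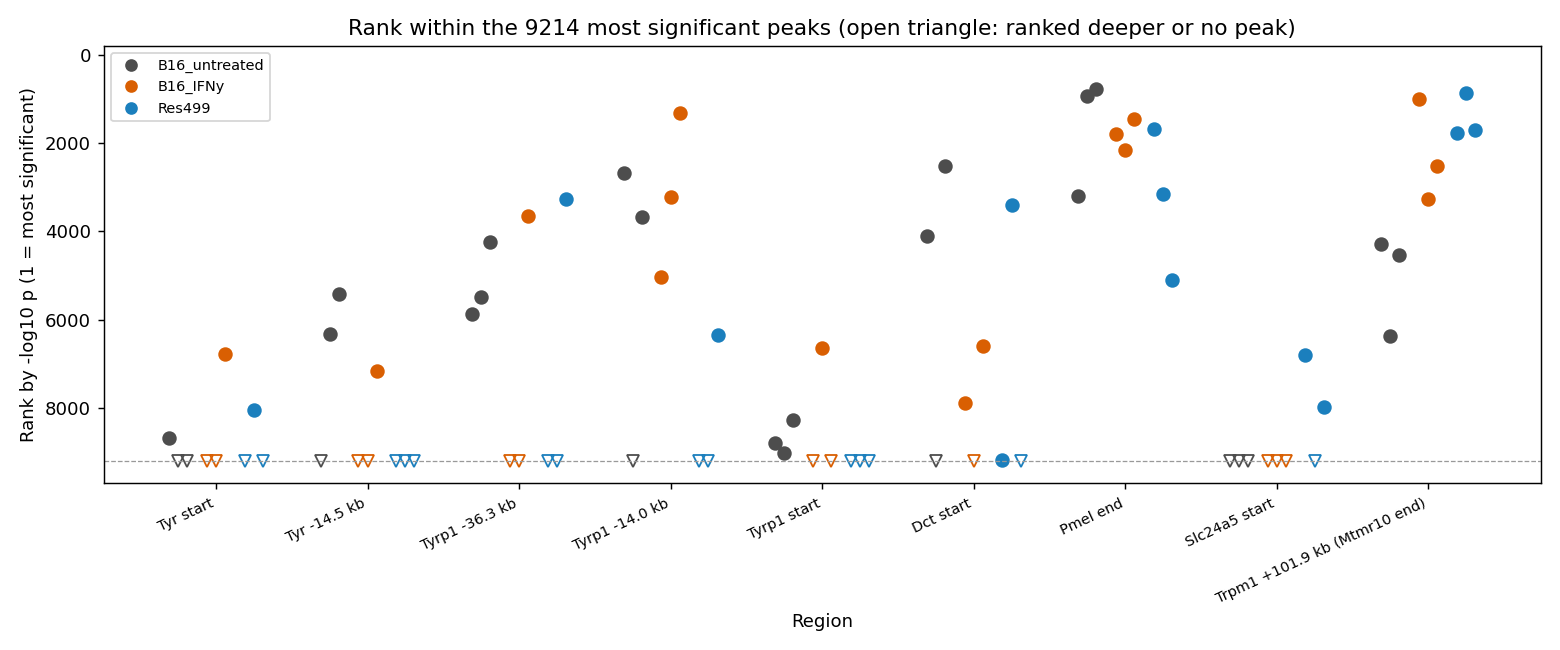
Rank by −log10 p within the 9214 most significant peaks (vertical axis, 1 at the top) for 9 of the 58 regions, each point a library, coloured by group, with open triangles for peaks that ranked deeper or were absent. The Tyrp1 start has its untreated points just above the limit, and the end of Mtmr10 on the right has all 3 untreated points below the other 6, a gap that is lost for B16_IFNy with ranks as a percent of each list.

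Genes of melanosome biogenesis and transport were set beside the members. Of 35 such genes, 32 had a region within 1 kb of an end in some library and 15 in all 9, against 7 and 2 of the 10 pigment genes. The shares over all coding genes are not given, so neither list can be called unusual. By rank of the best region at a gene end, Res499 against B16_untreated had none of 23 lower and 1 higher, Vps33a, a subunit of endolysosomal tethering complexes. Over all coding genes tested 5.75% were lower and 6.74% higher, and of the 3 pigment genes tested Tyrp1 was lower. B16_IFNy against B16_untreated had none of 23 lower and 1 higher, the adaptor subunit gene Ap1m1 (4.22% and 5.75% of all). Res499 against B16_IFNy had 2 of 24 lower, Ap1m1 and the lysosomal channel gene Tpcn2, and 1 higher, Vps33a (5.47% and 5.26%). With both groups together none of 24 was lower or higher (1.07% and 1.11%).

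In the full lists, 3 of 31 of these genes had an end called in all untreated and in no Res499 library: Rab27a, Mlph and Bloc1s2, against 2.21% of coding genes. Rab27a and Mlph encode 2 partners of the complex that ties melanosomes to actin, and Bloc1s2 a subunit of a complex of melanosome assembly. The ends of Rab27a and Mlph were each called in 3 untreated, 1 B16_IFNy and 0 Res499 libraries, and that of Bloc1s2 in 3, 2 and 0. At equal list length the numbers were 1, 0 and 0 for Rab27a, 0, 1 and 0 for Mlph and 0, 1 and 0 for Bloc1s2, so none of the 3 was separated there.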

How the data were processed

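ATAC-seq peak lists of 9 libraries were used. CASAVA, cutadapt 1.9, Bowtie2 2.2.4, MACS2 and the build GRCm38 (mm10) are named per the submitters' processing notes. The version and settings of MACS2, and whether reads were offset, are not given in the sources used here. Every library has a deposited list of its own. For each peak the authors deposited a score, a fold (ratio) of fragments over the local background, −log10 p, −log10 q and a summit offset. The fold is the authors' value and describes peaks within a list, and ranks were computed here from −log10 p.

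Peaks of chromosomes 1 to 19, X and Y that overlapped or touched were merged over all full lists. Any overlap of at least 1 base counted as a call. Ranks by −log10 p were read down to 9214, the length of the shortest list, and deeper or absent peaks were set to 1 past it. Groups were called separated where their ranks did not overlap, in regions within that depth in at least 3 compared libraries. Beside this stood two-sided exact permutation tests of the mean rank, with Benjamini-Hochberg adjustment over all such regions. Fold and −log10 p together gave the whole number of fragments at a summit within 0.01 for peaks with a −log10 p under 200. Genes and start sites came from RefSeq tables of GRCm38.p6, without exons. Python 3.11.15, numpy 2.4.6, pandas 2.3.3 and scipy 1.17.1 were used.

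The members, the lists of genes and the tests were chosen with earlier results of these data known. By rule, the regions named were those at member ends, those called in all libraries of one group and none of another, those separated by rank, and the 3 best ranked per gene. Other pathway genes were named where an end was called in all libraries of one group and none of another. The other regions, and Vps33a, Ap1m1 and Tpcn2, were named after their values were seen. The alternatives ranked by fold, used other list lengths, merging, overlap, thresholds and windows, the replicate number as a block, the long and short classes of libraries, and left out each library.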

Additional observations from a re-analysis of the deposited data

How the results depend on the processing

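Member regions separated by rank are given as lower and higher counts in the first-named group, with IFNy and Res499 for the comparisons of B16_IFNy and Res499 with B16_untreated. No share over all regions is given for the settings of this paragraph. The counts thus show how the calls move and not a trait of the pigment genes. With full lists, where longer lists hold more weak peaks, the lower counts were 1 for IFNy, 4 for Res499 and 2 for Res499 against B16_IFNy. Lists of 4607 peaks gave 0 lower for Res499 and 0 for Res499 against B16_IFNy. Peaks covering 50% of the region, or a −log10 q of at least 5, gave 0 lower for Res499. Ranking by fold gave 2 lower for Res499 against B16_IFNy. A 10 kb window gave 0 higher for IFNy, Res499 and both groups together, and 0 lower for Res499 against B16_IFNy. A 100 kb window gave 1 lower for IFNy and 1 higher for Res499 against B16_IFNy. Ranks as a percent of each library's own list (added after seeing the data) gave 6 lower and 0 higher for IFNy, 6 lower for Res499, 1 higher for Res499 against B16_IFNy and 0 higher for both together.

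The long class has 1 library in B16_IFNy and 1 in Res499, and the short class has 1 untreated library. With 1 library on a side, regions separate easily, so counts are given only for splits with more. In the long class both groups together had 2 lower and 3 higher. In the short class Res499 against B16_IFNy had 1 lower and 0 higher. These splits have fewer libraries per group and are values with no test and no share over all regions. The cause of the other changes was not tested.

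Leaving out each library in turn gave 0 to 2 lower and 1 to 2 higher for IFNy, 1 to 3 and 1 to 5 for Res499, 1 to 2 and 0 to 2 for Res499 against B16_IFNy, and 0 to 2 and 1 to 1 for both together. Regions called in all against none gave 0 to 8 lower for IFNy, 2 to 11 for Res499, 0 to 1 for Res499 against B16_IFNy and 0 to 7 for both together, and 0 higher in each. The mean number of regions per library ranged from 31.5 to 42 in B16_untreated, 17 to 20.5 in B16_IFNy and 13.5 to 21.5 in Res499. At equal list length it was 10.3 in B16_untreated and 9.33 in B16_IFNy. With gene ends taken within 2.5 kb, B16_untreated had 21.3 regions at ends instead of 16.3.

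Merging peaks within 250 bp, or merging the equal lists alone (added after seeing the data, as was leaving out libraries for the full-list counts), changed no count. Libraries with the same replicate number did not deviate together (correlations of −0.0307 to 0.0907, 0 of 9 pairs over 0.1), and 3 of 9 correlated best with their own number. With the replicate number as a block the counts were 0 and 1 for IFNy, 1 and 1 for Res499, 1 and 0 for Res499 against B16_IFNy, and 0 and 1 for both together. Depth limits these results. The shallowest peak called in a library held 6 to 10 fragments, and more were needed where the local background was high. In untreated replicate 3 a region inside Dct, with 18 fragments over an expected 5.60, ranked 19963 of 20136.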
